A study of Mus musculus with 12 samples.

Results

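The genes described here are 9 genes used mainly in germ cells, Dazl, Ddx4, Sycp1, Sycp3, Mael, Asz1, Tex101, Tdrd1 and Stk31, picked by symbol out of 23412 genes with counts and followed across 4 genotypes of mouse embryonic stem cells (mESCs). RNA-seq was performed on 3 biological replicates of each genotype, 12 libraries in all, from male v6.5 mESCs grown on gelatin in serum with leukemia inhibitory factor. WT cells were unedited. In Hmgn1-/- cells both copies of Hmgn1 have lost a single base of coding sequence, and in Hmgn2-/- cells both copies of Hmgn2 have gained one, each shifting the reading frame. For Hmgn1-/-Hmgn2-/- cells, both copies of Hmgn1 were edited in cells that already carried the Hmgn2 lesion. Edited lines were grown up from single picked cells, so each knockout genotype is 1 clone, and its replicates measure the spread of that line in culture rather than the spread among independent clones. Library totals ran from 17337908 counts (Hmgn2-/- replicate 3) to 31448468 counts (WT replicate 1).

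Germline genes of this kind act in meiosis, in translation control in germ cells and in the piRNA pathway, which uses small RNAs to keep transposons in check. In most somatic cells their CpG-rich promoters are methylated, and in mESCs a variant Polycomb complex that contains Mga, Max, E2f6, L3mbtl2 and Pcgf6 holds many of them down together with histone H3K9 methylation. HMGN1 and HMGN2 are abundant nucleosome-binding proteins of active chromatin.

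The targeted genes followed the labels. Hmgn1 stood at 594 to 661 CPM (counts scaled to library size and composition) in WT, at 138 to 142 in Hmgn1-/-, at 546 to 640 in Hmgn2-/- and at 19.9 to 21.6 in Hmgn1-/-Hmgn2-/- libraries. Hmgn2 stood at 119 to 137 CPM in WT, at 106 to 113 in Hmgn1-/-, at 50.9 to 54.5 in Hmgn2-/- and at 50.5 to 54.5 in Hmgn1-/-Hmgn2-/- libraries. A frameshift need not remove the transcript, so these levels check the labels and not the loss of protein.

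DNA methylation was not measured in these libraries, and most of the 9 genes were not silent in WT cells. Divided by the length of all annotated exons, Ddx4 reached 9.28 ± 1.04 CPM per kb in WT (SD, n = 3), above 78.6% of the 21737 genes with a length, whose median was 0.669 CPM per kb. Mael followed at 8.84 ± 1.26, Stk31 at 4.87 ± 0.607, Sycp1 at 3.31 ± 0.429, Dazl at 2.35 ± 0.245 and Sycp3 at 2.29 ± 0.532 CPM per kb. Tdrd1 at 0.477 ± 0.117 and Tex101 at 0.356 ± 0.0842 CPM per kb lay under the median gene. Asz1, at 0.0382 ± 0.0361 CPM per kb, was the only member near the floor of detection. The paper calls a gene expressed from a limit in RPKM, a related unit, and all 9 members lay below that limit in WT. These values order the genes by level within a genotype, and they say nothing of how each level is held. The order of Ddx4 and Mael, and of Dazl and Sycp3, was closer than the spread of the replicates.

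**Figure D1:**
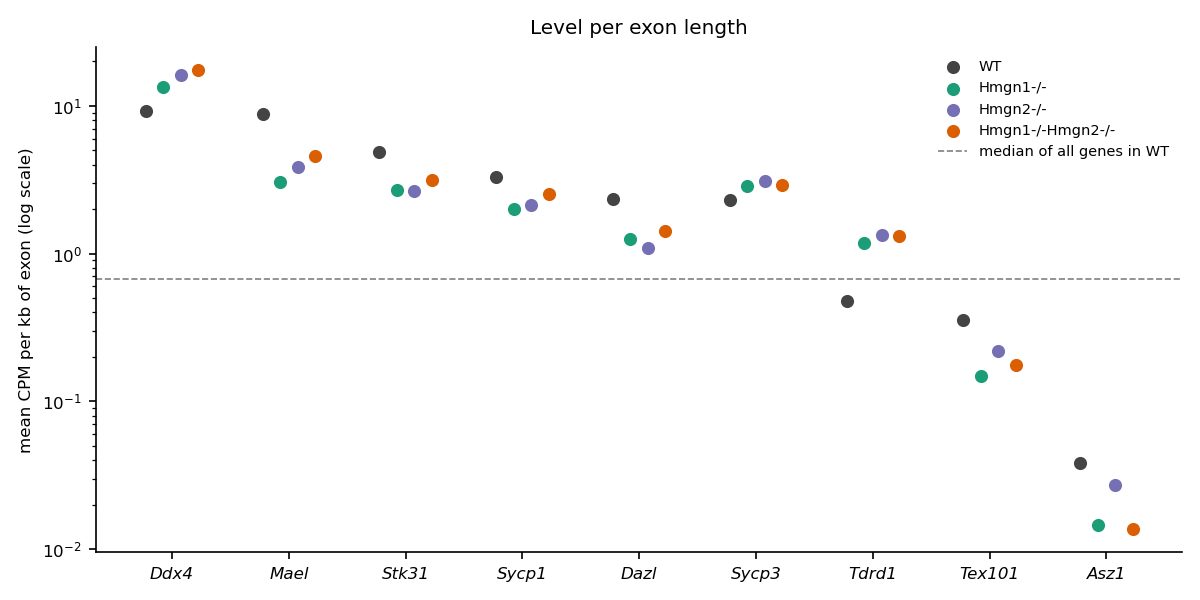
Mean CPM per kb of exon (log scale) of the 9 genes in each genotype, 3 libraries a point, with the median of all genes in WT as a dashed line. Ddx4 is highest in every genotype, Asz1 lowest, and Tdrd1 crosses the WT median line in the 3 knockouts.

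Each knockout was compared with WT by edgeR's quasi-likelihood test over all genes, and a gene was called a DEG at an adjusted p under 0.01 and a log2 FC of at least 1 in size. A filter on low counts left 8 of the 9 genes in each comparison with WT and 7 in each comparison between knockouts. In Hmgn1-/- cells 2 of the 8 tested genes were DEGs, Mael lower and Tdrd1 higher, where 5.98% of all 13917 genes tested were DEGs. In Hmgn2-/- cells 3 of 8 were DEGs, Dazl and Mael lower and Tdrd1 higher, against 5.15% of 14047 genes. In Hmgn1-/-Hmgn2-/- cells 1 of 8, Tdrd1, was a DEG, against 6.30% of 14128 genes. The median log2 FC of the tested members was -0.79, -0.74 and -0.50 in the 3 comparisons, beside 0.0040, 0.013 and 0.0037 over all genes tested. These medians include Tex101 (-1.27, -0.87 and -1.05), which passed the filter only in comparisons with WT, where it was highest. All 3 comparisons use the same WT libraries, so their values are not independent of each other. In bulk RNA, fewer cells making a transcript and less of it per cell cannot be told apart.

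Dropping the fold limit gave larger counts. In Hmgn1-/- cells 6 of 8 members had an adjusted p under 0.01, 4 of them lower and 2 higher, beside 10.1% lower and 7.28% higher among all genes. In Hmgn2-/- cells there were 5, 3 lower and 2 higher, beside 6.66% lower and 3.30% higher. In Hmgn1-/-Hmgn2-/- cells there were 5 as well, 3 lower and 2 higher, beside 10.2% lower and 7.79% higher. These counts describe genes picked with earlier results known and were not tested as a group.

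**Figure D2:**
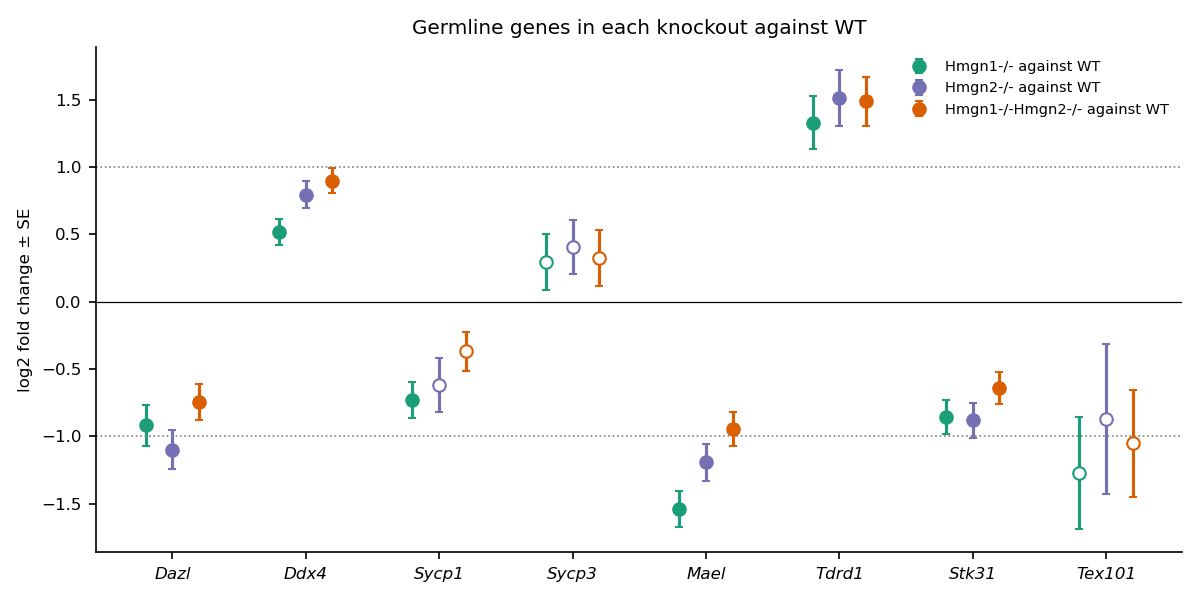
Log2 fold change of 8 germline genes in each knockout against WT, with its standard error from the edgeR fit. Filled points have an adjusted p under 0.01, open points do not, and dotted lines mark the fold limit of 1. Tdrd1, Ddx4 and Sycp3 are above 0 in all 3 comparisons, and Dazl, Mael, Stk31, Sycp1 and Tex101 below.

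Dazl and Ddx4 encode RNA-binding proteins of germ cells, Dazl a regulator of translation and Ddx4 the RNA helicase also called Vasa. Dazl lies at chr17:50279393-50293620 on the minus strand and Ddx4 at chr13:112598333-112652633 on the minus strand (GRCm38.p6). Dazl measured 8.40, 8.51 and 10.1 CPM in the WT libraries, 4.30, 5.64 and 4.46 in Hmgn1-/-, 4.20, 4.39 and 3.98 in Hmgn2-/-, and 5.00, 5.15 and 6.06 in Hmgn1-/-Hmgn2-/- libraries. Every WT library was above every knockout library. How many of all genes part WT from the knockouts in this way was not counted, here and for the members below. Dazl fell by 1.10 on the log2 scale in Hmgn2-/- cells (SE 0.146, adjusted p = 0.000430). Its log2 FC was -0.92 in Hmgn1-/- (SE 0.149, adjusted p = 0.000412) and -0.74 in Hmgn1-/-Hmgn2-/- cells (SE 0.137, adjusted p = 0.00105), both under the fold limit. Without Hmgn1-/- replicate 2, the log2 FC of Dazl in Hmgn1-/- cells was -1.05 and passed the limit (adjusted p = 0.000607).

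Ddx4 moved the other way. It measured 26.9, 25.5 and 31.5 CPM in WT, 37.0, 39.4 and 44.8 in Hmgn1-/-, 47.9, 49.1 and 48.8 in Hmgn2-/-, and 47.3, 53.7 and 56.9 in Hmgn1-/-Hmgn2-/- libraries. Again no WT library overlapped a knockout library. The log2 FC was 0.52 in Hmgn1-/- (SE 0.0963, adjusted p = 0.00113), 0.80 in Hmgn2-/- (SE 0.0977, adjusted p = 0.000254) and 0.90 in Hmgn1-/-Hmgn2-/- cells (SE 0.0937, adjusted p = 9.64e-06), each under the fold limit.

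Mael and Tdrd1 belong to the piRNA pathway and to nuage, the granules where piRNAs are made. Tdrd1 is a tudor protein that binds PIWI proteins, and Mael is the mouse form of Maelstrom. Mael lies at chr1:166201385-166238744 on the minus strand and Tdrd1 at chr19:56826171-56870012 on the plus strand. Mael measured 13.2, 15.1 and 17.6 CPM in WT, 5.00, 5.49 and 5.42 in Hmgn1-/-, 6.62, 7.04 and 6.36 in Hmgn2-/-, and 8.11, 7.31 and 8.51 in Hmgn1-/-Hmgn2-/- libraries. All knockout libraries were below all WT libraries, and the 3 knockout genotypes did not overlap each other. Mael fell by 1.54 on the log2 scale in Hmgn1-/- cells (SE 0.133, adjusted p = 2.02e-06) and by 1.19 in Hmgn2-/- cells (SE 0.138, adjusted p = 0.000172). In Hmgn1-/-Hmgn2-/- cells its log2 FC was -0.94 (SE 0.125, adjusted p = 7.87e-05), just under the fold limit, and without WT replicate 1 it was -1.05 and passed it (adjusted p = 1.23e-06).

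Tdrd1 was the 1 member called a DEG in all 3 knockouts. It measured 2.06, 3.30 and 2.42 CPM in WT, 6.34, 7.36 and 5.51 in Hmgn1-/-, 7.35, 8.29 and 6.005 in Hmgn2-/-, and 6.86, 6.59 and 7.93 in Hmgn1-/-Hmgn2-/- libraries. The knockout libraries overlapped one another and none reached down to WT. Tdrd1 rose by a log2 FC of 1.33 in Hmgn1-/- (SE 0.197, adjusted p = 0.000197), 1.51 in Hmgn2-/- (SE 0.207, adjusted p = 0.000515) and 1.49 in Hmgn1-/-Hmgn2-/- cells (SE 0.182, adjusted p = 3.98e-05). So Mael and Tdrd1, of the same pathway, changed in opposite directions in both single knockouts.

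Stk31, a tudor protein with a kinase-like domain, and Asz1, a scaffold of nuage at the mitochondrial surface, are the other members of that group. Stk31 (chr6:49395506-49469506, plus strand) measured 13.7, 16.0 and 17.6 CPM in WT, 9.53, 8.65 and 7.996 in Hmgn1-/-, 8.55, 8.40 and 8.74 in Hmgn2-/-, and 10.03, 10.97 and 9.50 in Hmgn1-/-Hmgn2-/- libraries. Each WT library was above each knockout library. The log2 FC was -0.85 (SE 0.123, adjusted p = 0.000156), -0.88 (SE 0.127, adjusted p = 0.000752) and -0.64 (SE 0.118, adjusted p = 0.00105) in the same order of knockouts, all under the fold limit. Asz1 (chr6:18050964-18109061, minus strand) had 19 counts over the 12 libraries, from 0 to 5 in a library. The filter on low counts left it out of every comparison. With no filter its log2 FC against WT was -1.01, -0.11 and -1.20 (SE 1.21, 1.12 and 1.18, adjusted p = 0.592, 0.970 and 0.531). DESeq2 gave it an adjusted p only in Hmgn2-/- cells (0.930), and none in Hmgn1-/- or Hmgn1-/-Hmgn2-/- cells. No difference was detectable at this depth, where 3 counts correspond to between 0.0937 and 0.178 CPM.

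Sycp1 and Sycp3 build the synaptonemal complex of meiotic chromosomes, Sycp1 as its transverse filament and Sycp3 in its lateral elements. Sycp1 (chr3:102818499-102936100, minus strand) measured 9.99, 12.7 and 12.6 CPM in WT and 7.45, 7.12 and 6.66 in Hmgn1-/- libraries. It measured 10.3, 6.78 and 5.65 CPM in Hmgn2-/- and 10.8, 7.49 and 8.89 in Hmgn1-/-Hmgn2-/- libraries, and replicate 1 of both genotypes reached into the WT range. The log2 FC was -0.73 in Hmgn1-/- cells (SE 0.131, adjusted p = 0.000876), under the fold limit. It was -0.62 in Hmgn2-/- (SE 0.200, adjusted p = 0.0546) and -0.37 in Hmgn1-/-Hmgn2-/- cells (SE 0.144, adjusted p = 0.0729), and neither passed. Without Hmgn2-/- replicate 1 the log2 FC in Hmgn2-/- cells was -0.90 with an adjusted p of 0.00304.

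Sycp3 (chr10:88459587-88473236, plus strand) ran from 2.29 to 3.62 CPM in WT, 3.08 to 4.03 in Hmgn1-/-, 3.86 to 3.93 in Hmgn2-/- and 2.93 to 4.13 in Hmgn1-/-Hmgn2-/- libraries. Its log2 FC was 0.29, 0.41 and 0.32 against WT, with adjusted p-values of 0.321, 0.192 and 0.273, so no change was called. WT replicates 1 and 2 weigh on these values, which were 0.49, 0.60 and 0.52 without the first and 0.17, 0.29 and 0.20 without the second, and none passed. Its exons share 660 bases with exons of Chpt1 on the opposite strand, and without strand the reads of the pair cannot be told apart. Chpt1 itself measured 6.91 ± 1.06 CPM in WT and between 5.57 and 6.90 on average in the knockouts.

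Tex101, a germ cell surface glycoprotein (chr7:24668012-24672050, minus strand), had 110 counts over the 12 libraries. It ranged from 0.448 to 0.727 CPM in WT, 0.191 to 0.322 in Hmgn1-/-, 0.0770 to 0.713 in Hmgn2-/- and 0.224 to 0.381 in Hmgn1-/-Hmgn2-/- libraries. The log2 FC against WT was -1.27 (SE 0.417, adjusted p = 0.0349), -0.87 (SE 0.558, adjusted p = 0.331) and -1.05 (SE 0.398, adjusted p = 0.0632). None passed. The Hmgn2-/- value rests on single libraries, at -0.34 without Hmgn2-/- replicate 1 and -1.64 without Hmgn2-/- replicate 3 (adjusted p = 0.695 and 0.0563), and the standard errors are larger than those of the better covered members above.

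**Figure D3:**
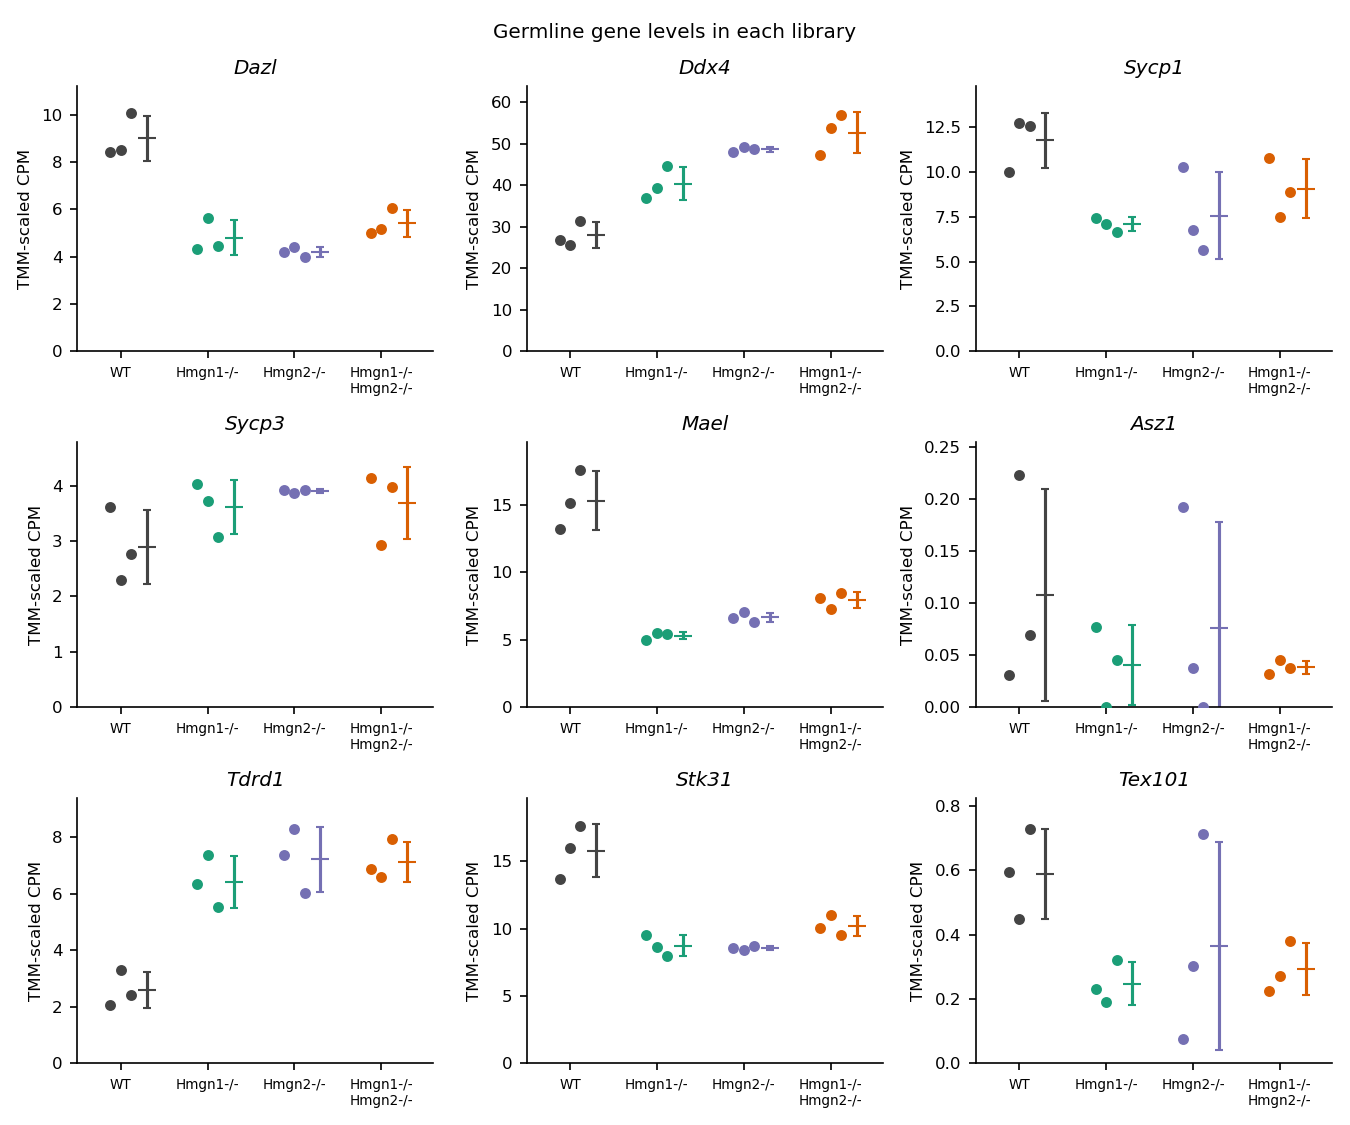
TMM-scaled CPM of the 9 genes in each of the 12 libraries (points), with the mean and SD of each genotype beside them (n = 3). WT stands apart from all knockout libraries for Dazl, Ddx4, Mael, Tdrd1 and Stk31, and overlaps at least 1 knockout genotype for Sycp1, Sycp3, Asz1 and Tex101. How many of all genes stand apart in this way was not counted. At an unadjusted p under 0.05 by edgeR there were 38.7%, 31.0% and 38.9% of all genes against WT.

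The knockouts were also compared directly with each other, which is the test of whether a second lesion or the other lesion changed a member further. No member was a DEG by edgeR in any of the 3 comparisons, and none by DESeq2. Few genes were: 0.176% for Hmgn2-/- against Hmgn1-/-, 0.511% for Hmgn1-/-Hmgn2-/- against Hmgn1-/- and 0.0434% for Hmgn1-/-Hmgn2-/- against the parental Hmgn2-/-. The last share, 6 genes, depends on the processing, with 29 genes by DESeq2, 21 with no filter on low counts and 18 with all libraries in a single fit. A block on the replicate number gave more genes than any of these, as described under the processing. Same-numbered libraries of this pair of genotypes correlated at 0.544, 0.153 and 0.435. With only the fold limit dropped, edgeR without the block called 0 of 7 members in each, beside 0.352%, 1.09% and 0.0434% of all genes. At an unadjusted p under 0.05 there were 2, 3 and 1 of the 7 tested members, beside 3.20%, 9.53% and 4.44% of all genes. With the block and no fold limit, edgeR called Ddx4 and Mael for Hmgn1-/-Hmgn2-/- against Hmgn1-/-. A missed threshold does not show that the lines are alike.

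The closest to a difference between knockouts were Mael and Ddx4. Mael was higher in Hmgn1-/-Hmgn2-/- than in Hmgn1-/- cells by a log2 FC of 0.59 (SE 0.125, adjusted p = 0.0217), and Ddx4 by 0.38 (SE 0.0868, adjusted p = 0.0346). Their calls at an adjusted p under 0.01 depend on the processing: Ddx4 passed with DESeq2 (adjusted p = 0.00576) and with no filter on low counts (0.00268), and Mael with no filter (0.00636). Ddx4 also passed without Hmgn1-/-Hmgn2-/- replicate 1 (0.00618) or without Hmgn1-/- replicate 3 (0.00791). With a block on the replicate number both Ddx4 and Mael passed, and their values are given under the processing.

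By mean level the order for Mael was WT, Hmgn1-/-Hmgn2-/-, Hmgn2-/- and Hmgn1-/-, and for Dazl and Stk31 it was WT, Hmgn1-/-Hmgn2-/- and then the single knockouts. For Ddx4 the order was Hmgn1-/-Hmgn2-/-, Hmgn2-/-, Hmgn1-/- and WT, and for Tdrd1 Hmgn2-/-, Hmgn1-/-Hmgn2-/-, Hmgn1-/- and WT. In each of these orders the step next to WT had an adjusted p under 0.01, and no other neighbouring step did. For Sycp1 and Sycp3 no neighbouring step passed, and Asz1 and Tex101 did not pass the filter on low counts between knockouts.

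Promoter sequences from RefSeq, 250 bases before to 50 after a start, were found for all 9 genes, 12 promoters in all. GCGGGA, an E2F6-type motif, and the E-box CACGTG were searched on both strands; the first, as itself or as TCCCGC, can share 1 base with the second. GCGGGA was found at 4 of the 9 genes (Ddx4, Sycp1, Sycp3 and Mael), in 4 of the 12 promoters, where 19.98% of 32851 promoters hold it. CACGTG was found at 6 genes (Ddx4, Sycp1, Sycp3, Mael, Tdrd1 and Stk31), in 8 of the 12 promoters, of which a pair at Tdrd1 and a pair at Stk31 overlap, and 7.15% of all promoters hold it. The CpG observed to expected ratio of the 12 promoters lay between 0.216 and 0.978, where the median over all promoters was 0.384 with quartiles of 0.176 and 0.750. The lowest was the third promoter of Tdrd1, and the other 11 lay at 0.666 or above. A match is a description of these letters and not a binding site.

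The upstream stretches of the 3 genes called DEGs are given from 5′ to 3′ on the gene's own strand, ending before the gene's first base in RefSeq and before any exon in GENCODE. They are shown because these are the members that passed both limits, in opposite directions. Capitals mark either motif, on either strand. Mael is chr1:166238748-166238994 (minus strand), Dazl chr17:50293637-50293870 (minus strand), and Tdrd1, from the most upstream of its 3 promoters, chr19:56825959-56826170 (plus strand).
Mael: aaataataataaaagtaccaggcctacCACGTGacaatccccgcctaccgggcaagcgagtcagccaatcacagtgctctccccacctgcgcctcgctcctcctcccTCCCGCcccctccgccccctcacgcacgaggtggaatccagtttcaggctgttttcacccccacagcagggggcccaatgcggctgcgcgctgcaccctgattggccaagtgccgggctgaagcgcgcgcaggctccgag
Dazl: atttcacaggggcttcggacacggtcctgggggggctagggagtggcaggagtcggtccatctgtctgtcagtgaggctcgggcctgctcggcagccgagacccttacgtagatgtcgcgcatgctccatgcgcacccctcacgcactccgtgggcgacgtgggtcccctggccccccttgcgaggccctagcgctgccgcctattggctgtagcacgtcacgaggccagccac
Tdrd1: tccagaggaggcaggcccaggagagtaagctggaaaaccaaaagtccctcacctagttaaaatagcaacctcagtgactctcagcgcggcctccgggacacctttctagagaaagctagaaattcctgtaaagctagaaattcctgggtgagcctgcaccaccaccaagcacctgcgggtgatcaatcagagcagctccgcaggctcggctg
Mael holds both motifs in this stretch, and Dazl and Tdrd1 hold neither. The CACGTG of the Tdrd1 promoters lies past the gene's first base in RefSeq.

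Other genes of the same processes were read from lists. Of 18 meiosis genes, 15 were tested. In Hmgn1-/- cells 1 rose and 2 fell, in Hmgn2-/- cells 1 rose and 3 fell, and in Hmgn1-/-Hmgn2-/- cells 2 rose and 2 fell. Over all genes tested, 0.898%, 0.776% and 1.30% rose and 5.08%, 4.38% and 5.00% fell. The median log2 FC of the list was -0.06, -0.06 and 0.02. By DESeq2 2 rose in Hmgn2-/- and 1 in Hmgn1-/-Hmgn2-/- cells, since its call of Stra8 differed. Smc1b, a meiotic cohesin subunit, went from 9.97 ± 0.742 CPM in WT to 1.15 ± 0.199, 1.92 ± 0.817 and 2.38 ± 0.464 in the 3 knockouts, and fell in each (log2 FC -3.13, -2.43 and -2.09). Hormad2, a chromosome axis protein, fell in each as well (log2 FC -2.04, -1.83 and -1.02), and was higher in Hmgn1-/-Hmgn2-/- than in Hmgn1-/- cells (1.02, adjusted p = 0.00684). Rec8, another cohesin subunit, rose in each (1.18, 1.04 and 1.01), from 8.37 ± 0.415 CPM in WT to between 16.9 and 19.08 CPM on average. Hormad1 fell in Hmgn2-/- cells (-1.05, adjusted p = 0.000138), with -0.82 and -0.77, under the fold limit, in the other knockouts. Stra8, which is induced by retinoic acid at meiotic entry, rose in Hmgn1-/-Hmgn2-/- cells (1.31, adjusted p = 0.00156), with 0.99 and 1.05 in the single knockouts (adjusted p = 0.0147 and 0.0210), which did not pass. By DESeq2 Stra8 passed in Hmgn2-/- (adjusted p = 0.000848) and not in Hmgn1-/-Hmgn2-/- cells (0.0118). Syce2 was the most abundant gene of the list, at 72.8 ± 7.01 CPM in WT.

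Of 16 further piRNA pathway genes, 3, 4 and 3 fell of 15, 14 and 14 tested, beside the 5.08%, 4.38% and 5.00% of all genes, with list medians of -0.38, -0.16 and -0.18. By edgeR and by DESeq2 0 rose, and at an unadjusted p under 0.05 edgeR had 2, 2 and 3 higher and 6, 5 and 6 lower, beside 38.7%, 31.0% and 38.9% of all genes in either direction. DESeq2 called 2, 3 and 3 lower, without Piwil1. Piwil4, a nuclear PIWI protein, fell in all 3 knockouts (log2 FC -2.10, -1.89 and -2.06), from 7.08 ± 1.34 CPM in WT to at most 1.88 CPM on average. Gpat2 fell in all 3 too (-1.70, -1.43 and -1.25). Tdrd12 fell in Hmgn2-/- and Hmgn1-/-Hmgn2-/- cells (-1.15 and -1.36) and had -0.95 in Hmgn1-/-. Piwil1 fell in the single knockouts (-1.87 and -2.23) from a low 0.707 ± 0.104 CPM by edgeR (adjusted p = 0.00565 and 0.00971), and did not pass by DESeq2 (0.0278 and 0.0152). Piwil1 passed the filter on low counts only in comparisons with WT, where it was highest. It is included in the edgeR falls and the medians of this list. Rnf17, the most abundant of the list at 87.5 ± 2.44 CPM in WT, stayed under the fold limit (-0.86, -0.73 and -0.50).

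Among 17 other germ cell genes, 12 were tested in each comparison and 6, 5 and 6 fell, against the same shares of all genes, with list medians of -1.07, -0.82 and -0.92. By edgeR and by DESeq2 0 rose, and at an unadjusted p under 0.05 edgeR also had 0 higher in each and 9, 9 and 8 lower, beside 38.7%, 31.0% and 38.9% of all genes in either direction. DESeq2 called 6, 5 and 5 lower. Tex19.1 was the most abundant, at 123 ± 28.7 CPM in WT and between 43.9 and 52.1 CPM on average in the knockouts, and fell in all 3 (log2 FC -1.49, -1.41 and -1.25). Sohlh2, a germ cell transcription factor, fell in all 3 (-1.47, -1.13 and -1.10), as did Fkbp6 (-2.31, -1.96 and -1.29), Tuba3a (-1.58, -1.30 and -1.09) and D1Pas1 (-1.07, -1.16 and -1.09). Slc25a31 fell in Hmgn1-/- cells (-1.08) and Boll in Hmgn1-/-Hmgn2-/- cells (-1.64, adjusted p = 0.00255), where Boll did not pass by DESeq2 (0.0120). Boll, highest in WT, did not pass the filter on low counts for Hmgn1-/-Hmgn2-/- against Hmgn1-/-. The falls in these lists were found in the same libraries as the rise of Tdrd1 and Rec8 in all 3 knockouts. Germ cell genes therefore did not all move in 1 direction.

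**Figure D4:**
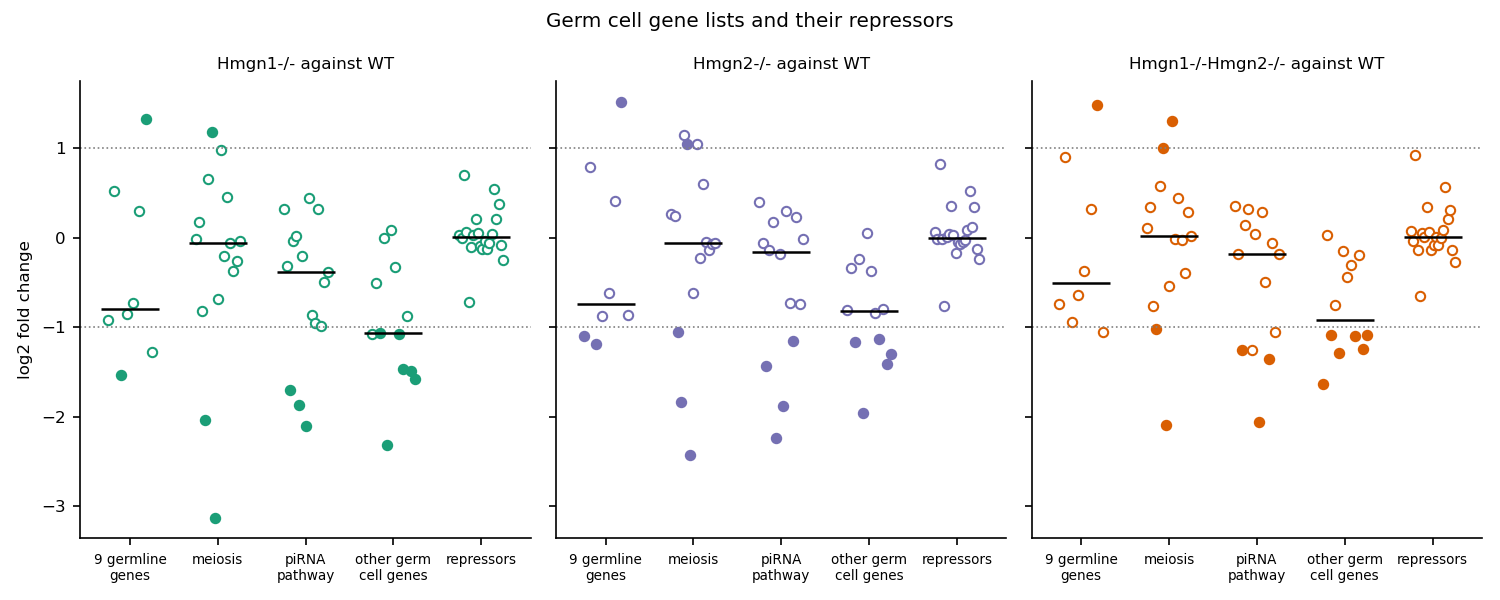
Log2 fold change against WT of each tested gene in 5 lists, 1 panel per knockout. Filled points are DEGs, open points are not, bars are list medians and dotted lines the fold limit. Filled points lie mostly below 0 outside the list labelled repressors, which also holds Tet1, Tet2 and Kdm5c and has no filled points.

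A list of 20 genes covered the Polycomb, DNA methylation and H3K9 methylation machinery that acts on germline promoters, with Tet1, Tet2 and Kdm5c added. Counts and medians of the list therefore mix unlike functions. All 20 were tested, and 0 were DEGs by edgeR or by DESeq2 in any comparison with WT. At an unadjusted p under 0.05 edgeR had 8, 6 and 10 of them, beside 38.7%, 31.0% and 38.9% of all genes, and the list medians were 0.0089, -0.0012 and 0.0045. Trim28, the most abundant, stood at 3379 ± 235 CPM in WT and between 3080 and 3210 CPM on average in the knockouts. Under the fold limit, Dnmt3a had a log2 FC of 0.70, 0.83 and 0.92 (adjusted p = 7.23e-06, 0.000110 and 4.08e-07). Dnmt3l, its catalytically inactive partner, had -0.72, -0.76 and -0.65 (adjusted p = 0.000147, 0.00244 and 0.000440). Tfdp1 had 0.38, 0.34 and 0.31 (adjusted p = 0.000117, 0.00673 and 0.000329). The demethylase Tet1 had 0.54 in Hmgn1-/- and 0.57 in Hmgn1-/-Hmgn2-/- cells (adjusted p = 5.19e-05 and 0.000242). Ehmt2 had 0.36 in Hmgn2-/- and 0.35 in Hmgn1-/-Hmgn2-/- cells (adjusted p = 0.00586 and 0.000431), and Uhrf1 -0.25 in Hmgn1-/- and -0.27 in Hmgn1-/-Hmgn2-/- cells (0.00920 and 0.00792). No other gene of the list had an adjusted p under 0.01 by edgeR. These are transcript levels, and no protein or methylation level was measured.

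Markers of the cells that such a culture can hold were read by library. The 10 ES cell markers summed to between 6596 and 7854 CPM over the 12 libraries, with Pou5f1 the most abundant at 1966 ± 82.5 CPM in WT. Against WT 0 of the 10 were DEGs by edgeR or DESeq2, and 5, 5 and 6 had an unadjusted p under 0.05 by edgeR, beside 38.7%, 31.0% and 38.9% of all genes. Under the fold limit, 2 of them had an adjusted p under 0.01 in every knockout, Klf4 with 0.93, 0.69 and 0.74 and Nanog with -0.32, -0.50 and -0.45. The 8 primordial germ cell markers summed to 255 ± 11.5 CPM in WT, 271 ± 19.0 in Hmgn1-/-, 257 ± 33.7 in Hmgn2-/- and 216 ± 18.1 in Hmgn1-/-Hmgn2-/- libraries. Every Hmgn1-/-Hmgn2-/- library, at 195 to 228 CPM, was below every WT library, at 244 to 267 CPM, while the single knockouts overlapped WT. Ifitm3 was the most abundant of them. Prdm1, 1 of the 8, fell in every knockout (log2 FC -2.08, -1.87 and -2.21), beside 5.08%, 4.38% and 5.00% of all genes. At an unadjusted p under 0.05 edgeR had 4, 2 and 2 of the 8 higher and 2, 2 and 5 lower, beside 38.7%, 31.0% and 38.9% of all genes in either direction. Under the fold limit, Ifitm3 had -0.37 and Dppa3 -0.56 in Hmgn1-/-Hmgn2-/- cells (adjusted p = 0.00657 and 0.00173). Dnd1 had 0.65, 0.54 and 0.50 in the 3 knockouts (adjusted p = 9.09e-05, 0.00706 and 0.000855). Several of these markers are also used by mESCs. The 7 markers of gonad somatic cells summed to between 8.98 and 13.2 CPM, most of it Wt1, with Fshr at 0 counts in every library and Nr5a1 and Cyp17a1 under 0.1 CPM on average. Of the 2, 3 and 3 tested, 0 were DEGs by edgeR or DESeq2, and 0, 1 and 0 had an unadjusted p under 0.05 by edgeR.

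In 3 further marker lists the sums of all knockout libraries lay apart from those of WT. The 7 primitive endoderm markers summed to 12.5 ± 1.26 CPM in WT, 67.3 ± 7.80 in Hmgn1-/-, 81.2 ± 15.5 in Hmgn2-/- and 184 ± 6.59 in Hmgn1-/-Hmgn2-/- libraries. As DEGs, 5, 5 and 7 of 7 were higher, beside 0.898%, 0.776% and 1.30% of all genes, and Dab2 was the most abundant. The 7 markers of 2-cell-like cells summed to 22.3 ± 4.79 CPM in WT and to 1.55 ± 0.545, 1.49 ± 0.333 and 6.91 ± 1.35 in the knockouts. Of these, 6 of 6, 7 of 7 and 6 of 7 tested fell by edgeR, beside 5.08%, 4.38% and 5.00% of all genes. DESeq2 called 7, 7 and 6 lower. Some passed the filter on low counts only against WT, where they were high, and 3, 3 and 4 of the 7 were tested between knockouts. Zscan4c was the most abundant, though near-identical copies in these families make single gene counts uncertain. The 7 fibroblast markers summed to 18.9 ± 2.28 CPM in WT and to 5.42 ± 0.183, 5.71 ± 0.349 and 6.53 ± 1.38 in the knockouts. The 3 tested, Col1a1, Col1a2 and Thy1, fell in each knockout, beside the same 5.08%, 4.38% and 5.00% of all genes. Col1a2, highest in WT, did not pass the filter on low counts for Hmgn2-/- against Hmgn1-/-. Thy1 was the most abundant, Lum had 0 counts throughout, and Postn and Dcn averaged under 0.1 CPM. The part of these shifts, and of that in the primordial germ cell markers, in the levels of the 9 germline genes was not tested.

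**Figure D5:**
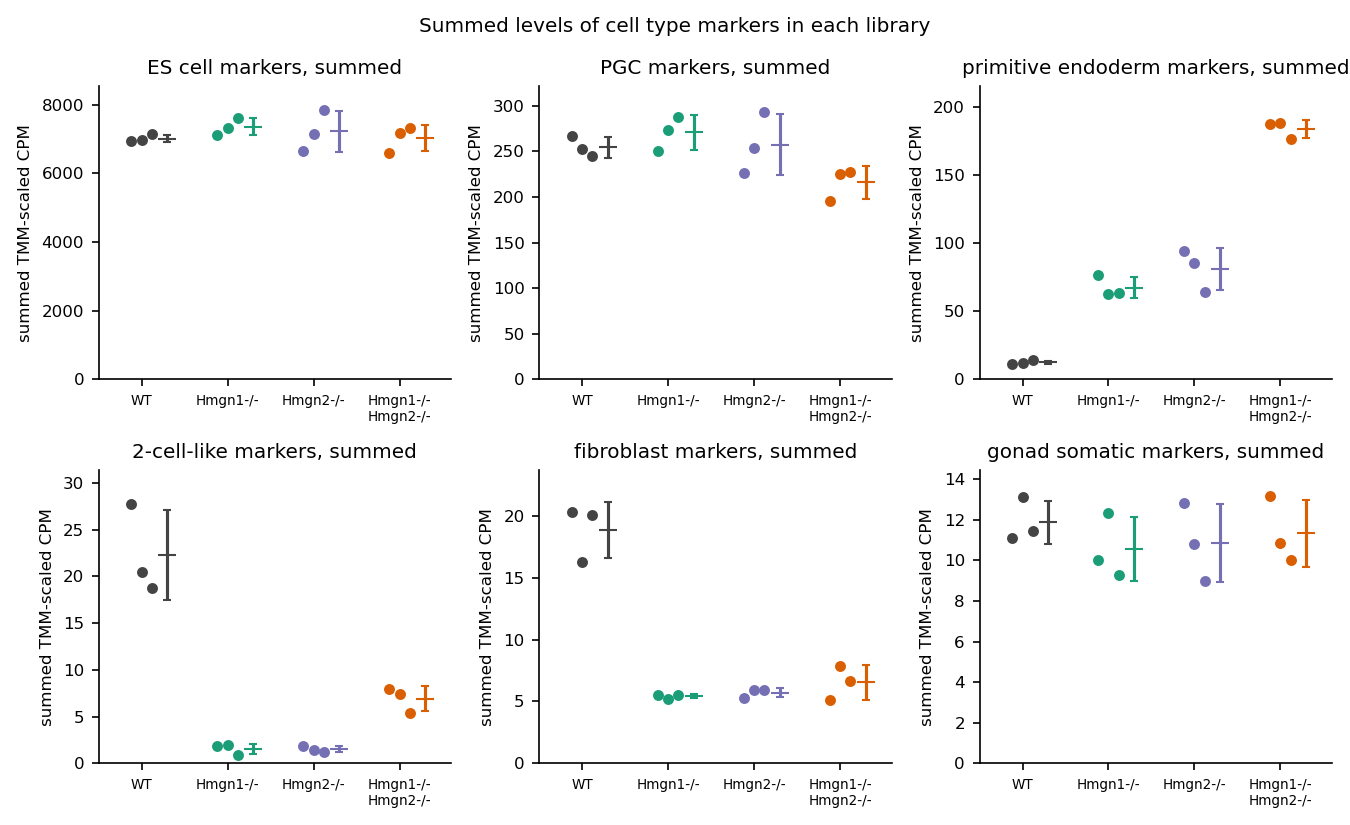
Summed TMM-scaled CPM of 6 marker lists in each of the 12 libraries (points), with the mean and SD of each genotype (n = 3). Primitive endoderm markers are higher, and 2-cell-like and fibroblast markers lower, in every knockout library than in any WT library, and the sums of ES cell and gonad somatic markers overlap.

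Nearest genes in pattern were sought for the 8 members tested against WT, which leaves out Asz1, and were those with the smallest root mean square difference in log2(CPM + 0.5), each gene centred on its mean over the 12 libraries, among genes averaging at least 1 CPM. For Mael they were Sohlh2 (0.157), Alox15 (0.161) and Lor (0.167), and Sohlh2 is itself one of the germ cell genes above. Those for Dazl were Rp2h (0.110), Rex2 (0.120) and Ptpn7 (0.123), and those for Stk31 were Pde8a (0.0864), Slc4a11 (0.0963) and Cnga3 (0.109). Tdrd1 was nearest to Cpe (0.151), Rap1gap2 (0.174) and Tril (0.175), and Ddx4 to Nlrp4f (0.127), Srxn1 (0.142) and Dus2l (0.153). Sycp1 was nearest to Usp9x (0.133), Med14 (0.147) and Pik3r1 (0.158). The levels of Sycp3 and Tex101 did not pass a test. Sycp3 was nearest to Zfp712 (0.0762), Siah2 (0.0838) and Yaf2 (0.0931), and Tex101 to Myl6 (0.128), Bex1 (0.129) and Apoc1 (0.140). On this scale the SD over the 12 libraries was 0.347 for Sycp1, 0.223 for Sycp3, 0.402 for Dazl and 0.363 for Ddx4. It was 0.545 for Mael, 0.581 for Tdrd1, 0.352 for Stk31 and 0.321 for Tex101. Tex101 averaged at most 0.589 CPM in a genotype, so the added 0.5 shrinks its fold changes on this scale.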

How the data were processed

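RNA-seq counts per gene, deposited by the authors as 1 table for each genotype with 3 replicate columns each, covered 23412 genes in 12 libraries. The submitters' processing notes name STAR, DESeq2 and the mm10 genome; the counting program and its use of strand are not given in the sources used here. Comparisons took the 6 libraries of 2 genotypes through edgeR 4.0.16 (filterByExpr, TMM scaling, quasi-likelihood test, Benjamini-Hochberg adjustment over all genes tested, two-sided). A gene was called a DEG at an adjusted p under 0.01 and a log2 FC of at least 1 in size. CPM values are TMM-scaled over all 12 libraries. Gene positions and promoters are from RefSeq (GRCm38.p6) and exon lengths from GENCODE M21. The genes and lists were chosen with earlier results of these data known. Named genes are the 9 germline genes, list genes called a DEG in a comparison with WT, the most abundant gene of each list, the 3 genes nearest in pattern to each germline gene tested against WT, and Hmgn1 and Hmgn2. Chpt1 was added after its overlap with Sycp3 was seen, and repressor and marker genes under the fold limit after their values were seen. Scripts were tested on simulated data. DESeq2 1.42.0, RLE scaling, no filter, all libraries together, the replicate block, no fold limit, thinned counts and leaving out each library were alternatives. Carrying the counts without a fold limit through the other alternatives, and DESeq2 calls for the lists, were chosen after seeing the data.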

Additional observations from a re-analysis of the deposited data

How the results depend on the processing

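The number of germline genes called DEGs against WT, 2, 3 and 1, was the same under DESeq2, RLE scaling, no filter on low counts, all 12 libraries in a single fit, thinned counts and the replicate block. With no fold limit it was 6, 5 and 5, and the count of all genes was 2412, 1400 and 2544, and 48 and 150 for Hmgn2-/- and Hmgn1-/-Hmgn2-/- against Hmgn1-/-; the limit itself accounts for these rises. Leaving out 1 library gave 1 to 2 members for Hmgn1-/-Hmgn2-/- against WT, the 2 without WT replicate 1 (Mael added), and 3 for Hmgn1-/- without Hmgn1-/- replicate 2 (Dazl added). For Hmgn1-/-Hmgn2-/- against Hmgn2-/-, 6 genes became 29 with DESeq2, 21 with no filter, 18 in the single fit and 1 to 12 with 1 library left out; the cause was not tested.

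Counts of members at an adjusted p under 0.01 alone were taken through the alternatives after seeing the data. They were within 1.5 times except for Hmgn1-/-Hmgn2-/- against Hmgn1-/-, where 0 became 1 with DESeq2 (Ddx4), 2 with no filter (Ddx4 and Mael) and 0 to 1 with 1 library left out, 1 without Hmgn1-/-Hmgn2-/- replicate 1 or Hmgn1-/- replicate 3. The cause was not tested.

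Same-numbered libraries of different genotypes deviated together with r from 0.0681 to 0.544 over 18 pairs, other-numbered ones from -0.454 to 0.0839 over 36, and all 12 libraries had their highest correlation with one of their own number. Of the 12 libraries, 10 correlated with every same-numbered library above every other-numbered one. Since 2 of the 18 were under 0.1, the numbers were not taken as pairs, though this limit does not show that same-numbered libraries share nothing. Those 2 were WT with Hmgn2-/- replicate 3 (0.0803) and Hmgn1-/- with Hmgn1-/-Hmgn2-/- replicate 2 (0.0681). All 3 pairs were over 0.1 for Hmgn1-/-Hmgn2-/- with Hmgn2-/- (0.544, 0.153 and 0.435) and Hmgn2-/- with Hmgn1-/- (0.356, 0.180 and 0.370). The same held for WT with Hmgn1-/- (0.272, 0.101 and 0.283) and with Hmgn1-/-Hmgn2-/- (0.235, 0.183 and 0.165). With the replicate block, members at an adjusted p under 0.01 in Hmgn1-/-Hmgn2-/- against Hmgn1-/-, whose pairs had 0.310, 0.0681 and 0.372, were 2 (Ddx4 and Mael, adjusted p = 3.43e-05 and 0.00327), and genes past the threshold in Hmgn1-/-Hmgn2-/- against Hmgn2-/- were 32, with 0 members.

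With 1 clone per knockout genotype, a difference between genotypes and a difference between clones cannot be told apart, and p-values measure the spread between cultures. Depth limits Asz1 and Tex101.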
